A study of Mus musculus with 19 samples.

Results

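Lung RNA of 5 mice given benzo(a)pyrene (BaP) by mouth at 75 mg/kg/day, the highest dose of the series, was compared with that of 5 mice given only the vehicle. These 10 arrays were chosen by their titles out of 19; the others came from lower doses, 25 mg/kg/day (5 mice) and 50 mg/kg/day (4). All were male MutaMouse animals (labelled as transgenic mouse strain 40.6), so the controls carried the same transgene, a reporter used for scoring mutations. They were 25 weeks old, had been gavaged daily over 28 days and had part of the lung collected 3 days after the final dose. The vehicle is not named in the labels. Each mouse had its own 2-colour Agilent array, on which lung RNA carried the red dye Cy5 and a commercial reference RNA pooled from 11 mouse cell lines carried the green dye Cy3, with no dye swap. A value below is therefore a log2 ratio of lung over reference, and a difference is the mean ratio at 75 mg/kg/day minus that in the controls. A log2 ratio of one gene cannot be set against that of another, because the reference level of each gene differs. Values are listed for controls 1 to 5 and then for mice 16 to 20 at 75 mg/kg/day. Where the text says that a gene rose or fell, its limma p was below 0.05 after Benjamini-Hochberg adjustment across every tested gene.

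BaP is a polycyclic aromatic hydrocarbon formed in combustion. It binds the aryl hydrocarbon receptor (AhR), which induces the cytochromes that oxidise it, and epoxide hydrolase then takes part in making the diol epoxides that form bulky adducts on DNA. DNA damage stabilises p53, a transcription factor whose targets halt the cell cycle, repair DNA or start apoptosis. The lung is rich in capillary endothelium, and RNA of whole lung holds transcripts of epithelial, endothelial, stromal and blood cells together. In such bulk RNA, fewer cells of a type and less RNA per cell cannot be told apart.

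The samples carried lung transcripts: over the 10 arrays the log2 ratio to the reference was 6.44 to 7.84 for Sftpc (surfactant protein C of alveolar type 2 cells), 6.17 to 7.71 for Scgb1a1 (club cells), 5.02 to 5.39 for Ager (alveolar type 1 cells) and 5.13 to 6.53 for Cdh5 (endothelium). Between 45.59% and 62.89% of spots passed as well above background for lung RNA, and the median lung intensity over local background was 11.7 to 30 units in the controls and 21.09 to 36.61 at 75 mg/kg/day, so the treated arrays were brighter on the whole. The arrays lay on 6 slides, and 4 slides had arrays of both groups. The scanner software marked controls 1 and 3 and mouse 20 for evaluation. A mouse was counted as high for a gene where it was more than 1.5 log2 units above the median of the other 4 mice of its group. Its gap to the next mouse also had to exceed 0.71 of the group's range (Dixon's ratio). Control 5 was high for 89 genes, among them the muscle genes Acta1, Tnnt3 and Mylpf and the skin gene Lor. Control 3 was high for 55, and control 4 for 36 that included the airway genes Reg3g, Clca1 and Muc5b. Mouse 20 was high by this rule for 13 genes, and the other 4 treated mice for 0 to 2. The number of arrays limits the precision of every value given here. The labels tell mice of a group apart only by their numbers. Each mouse had 1 array, so p-values measure the spread between animals together with that between arrays, slides and scan days. This spread was estimated over all 19 arrays of the series.

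Of 19313 genes tested, 12323 with a symbol, 800 differed between the groups (4.14%): 509 rose (2.64%) and 291 fell (1.51%). Of these, 190 rises and 80 falls were at least 1.5-fold, and 54 rises and 9 falls at least 2-fold. The 5 treated mice lay wholly above the 5 controls for 383 of the rises and wholly below for 185 of the falls, against 910 of all genes (4.71%) with groups apart in either direction. On all 4 slides that held both groups, 489 of the rises were higher and 279 of the falls lower in the treated mouse. The arrays of these slides also made the calls, so these counts are no separate support. The share of all genes with 1 direction on all 4 slides was not counted. The split between rises and falls depended on the scaling of the arrays. With loess, which levels each array along its brightness, the median difference of all genes was -0.008; with median centring it was 0.351, and 531 genes were called higher and 3 lower. With the lung channel alone the split was 496 higher and 115 lower. Of the 291 falls, 189 were below the median of all genes under median centring, whereas 494 of the 509 rises were above it. Only 73 of the 291 falls were below 0 under median centring. The call was kept there by 2 of the falls and by 286 of the rises. Falls are therefore falls relative to genes of like brightness. With slide as a block 1766 genes were called (986 higher, 780 lower), among them 504 of the 509 rises and 285 of the 291 falls. Leaving out mouse 16 gave 445 calls, leaving out mouse 18 gave 449 and leaving out control 2 gave 529. Rises then numbered 305 without mouse 16 and 312 without mouse 18, while leaving out mouse 16, mouse 18, control 2 or mouse 19 gave 140, 137, 183 or 187 falls.

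**Figure D1:**
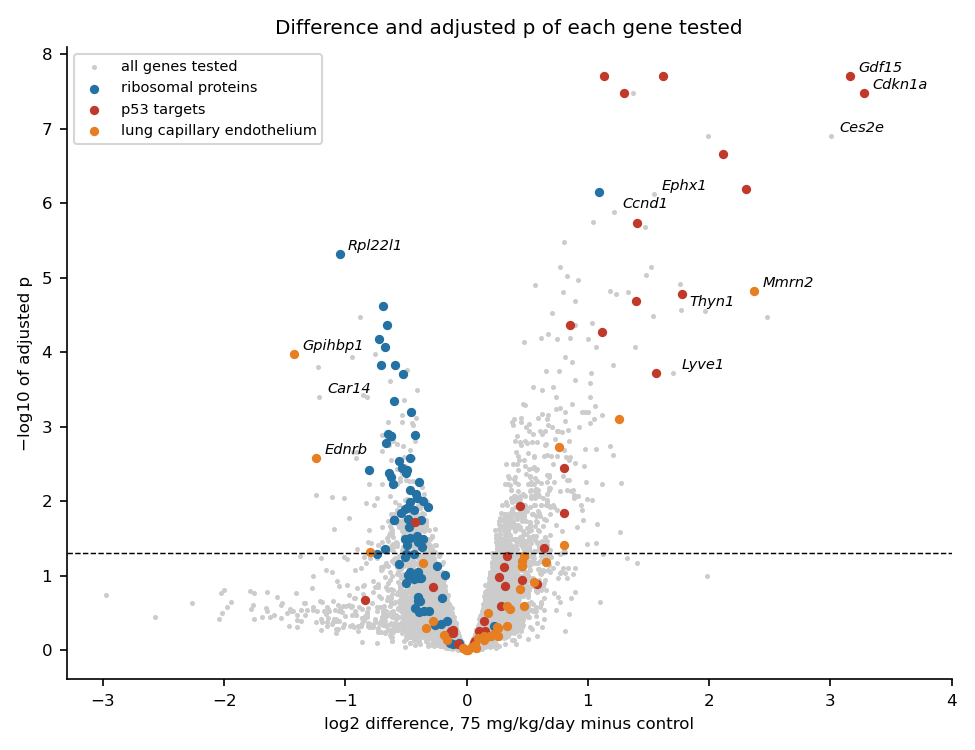
Each point is a gene tested, with its log2 difference (75 mg/kg/day minus control) on the horizontal axis and −log10 of its limma adjusted p on the vertical axis; the dashed line marks 0.05, and colours mark members of 3 gene lists. The p53 targets reach furthest to the upper right, most ribosomal protein genes lie left of 0, and capillary endothelium markers lie on both sides, from Gpihbp1 (-1.42) to Mmrn2 (2.37).

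Some of the genes that rose hold a match to the p53 response element, the paired sequence to which p53 binds as a tetramer, within the 250 bases before and 50 after the gene start that RefSeq gives. The consensus was searched as 2 elements of 10 bases, with their C and G cores fixed, at most 1 mismatch elsewhere in the pair and a spacer of 0 to 13 bases; the consensus reads the same on both strands. Of 32851 RefSeq promoters of build GRCm38.p6 searched, 206 (0.627%) held such a pair and 22 (0.067%) held it with no spacer. Promoters of 1 chromosome were left out of the search. Called genes with no spacer were Cdkn1a, Ccng1 and Rps27l, and Inka2 had a spacer of 12 bases. They are shown because each is a called rise with such a pair; capitals mark the paired elements, and each has 1 mismatch.
Cdkn1a: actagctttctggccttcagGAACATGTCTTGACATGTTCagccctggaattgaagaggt
Ccng1: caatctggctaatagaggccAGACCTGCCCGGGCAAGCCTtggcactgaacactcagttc
Rps27l: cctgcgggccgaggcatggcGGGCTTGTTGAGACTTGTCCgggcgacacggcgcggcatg
Inka2: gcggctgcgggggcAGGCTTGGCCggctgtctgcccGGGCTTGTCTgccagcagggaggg
The windows are Cdkn1a at chr17:29090908-29090967 (plus strand), Ccng1 at chr11:40755442-40755501 (minus strand), Rps27l at chr9:66946276-66946335 (plus strand) and Inka2 at chr3:105705341-105705400 (plus strand), and their elements begin 51, 195, 117 and 103 bases before the annotated start. Spaced pairs also stood before the urate transporter gene Slc2a9, which rose (0.74, further probes 0.12 and 0.52), and before Pde2a (-0.37, a second probe at -0.05) and Slc27a1 (-0.42), which fell. The Slc2a9 spot was well above background in only 2 of 5 controls, and its difference ranged from 0.46 to 2.82 over 27 alternative processings. A match is a description of letters, and only 314 of the 393 rises with a symbol (79.9%) had a promoter among those searched, so their share is not set against that of all promoters.

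Cdkn1a, which encodes the cell cycle inhibitor p21, had log2 ratios of -1.67, -1.30, -1.38, -1.44 and -0.95 in the controls and 2.40, 1.89, 2.51, 1.27 and 1.56 at 75 mg/kg/day. All treated mice were above all controls, by 9.69-fold (95% interval 6.99 to 13.4, limma adjusted p = 3.3e-08) on average. Ccng1 (cyclin G1) rose 4.93-fold (95% interval 3.72 to 6.53, limma adjusted p = 6.5e-07). Rps27l, a ribosomal protein paralog known as a p53 target, had ratios of -0.46, -0.35, -0.12, -0.41 and -0.47 in the controls and 0.90, 0.81, 0.73, 0.57 and 0.64 in the treated mice, which do not overlap, and rose 2.14-fold (95% interval 1.86 to 2.44, limma adjusted p = 7.1e-07). Inka2, an inhibitor of the kinase Pak4, had 0.66, 0.74, 0.48, 0.73 and 0.59 in the controls and 2.35, 1.80, 2.49, 1.97 and 1.98 at 75 mg/kg/day. Its groups were also apart, and it rose 2.79-fold (95% interval 2.23 to 3.48, limma adjusted p = 9.1e-06); a second Inka2 probe was 1.30 higher. Of 36 p53 targets tested, 17 rose and 1, the sestrin gene Sesn1, fell (by 0.43), against 2.64% and 1.51% of all genes. Their median difference was 0.45, against -0.008 for all genes. The largest after Cdkn1a were Gdf15, a secreted stress cytokine (8.95-fold), Ccng1, Phlda3, which restrains Akt (4.32-fold), and Psrc1, a spindle protein gene (3.42-fold, although 2 further probes were 0.47 and 0.81 higher). Among the smallest p values of all genes were those of the p53 targets Ei24, a membrane protein of the endoplasmic reticulum (2.19-fold, limma adjusted p = 1.9e-08), Trp53inp1 (3.07-fold, limma adjusted p = 1.9e-08) and Zmat3, an RNA-binding protein (2.65-fold). The list was written with earlier results of these data known, so its count is a description.

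Outside that list, the 20 largest rises with all 5 treated mice above the control mean began with an esterase gene and included several genes of endothelial cells. Of these, 19 are reported here. The groups overlapped for Ltc4s and were apart for the other 18, against 75.2% of all the rises and 4.71% of all genes tested.

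**Figure D2:**
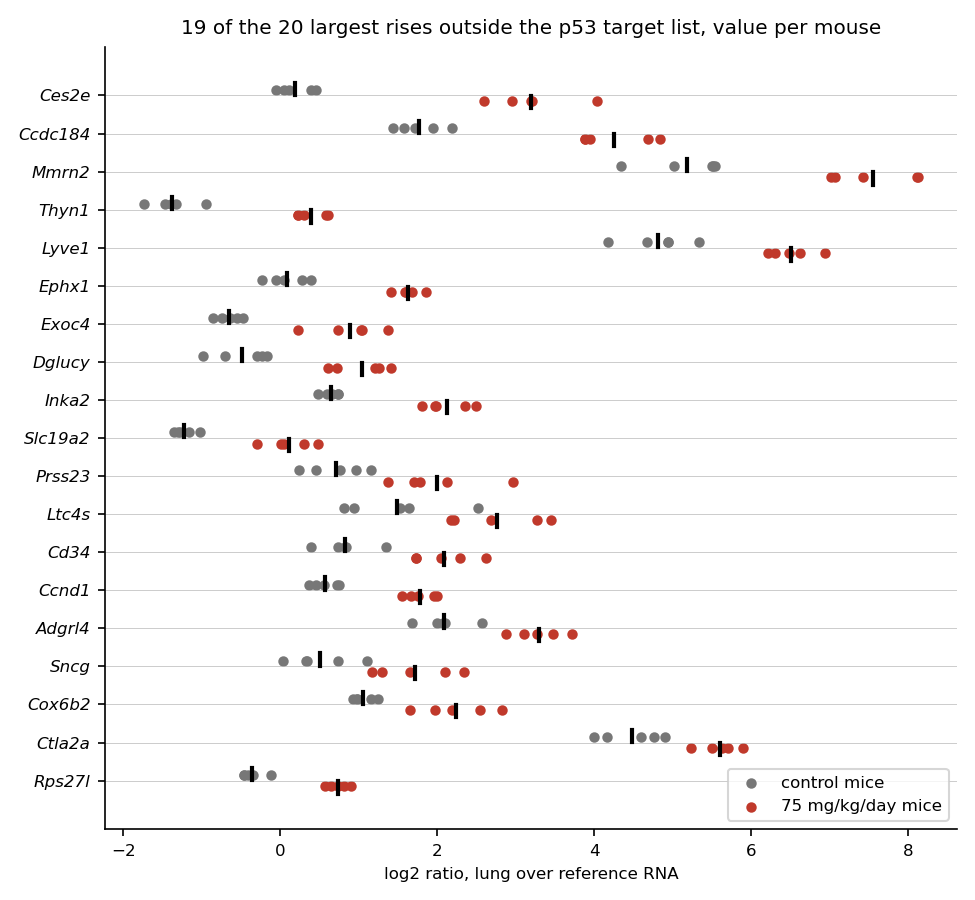
Log2 ratio of lung over reference (horizontal axis) for each mouse, grey for the 5 controls and red for the 5 mice at 75 mg/kg/day, for 19 of the 20 largest rises outside the p53 target list; black ticks are group means. Red and grey points are separate in every row but that of Ltc4s, where the highest control (2.52) passes the lowest treated mice.

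The largest of these rises was that of Ces2e. Ces2e, a carboxylesterase that cleaves ester and amide drugs, had ratios of -0.06, 0.11, 0.05, 0.46 and 0.39 in the controls and 3.20, 3.21, 4.03, 2.95 and 2.59 at 75 mg/kg/day. The groups were far apart and it rose 8.05-fold (95% interval 5.79 to 11.2, limma adjusted p = 1.3e-07), but the spot was well above background in only 2 of 5 controls, and a second Ces2e probe was only 0.24 higher. Over 27 alternative processings the difference of Ces2e ranged from 1.63 to 4.69. Ephx1, the microsomal epoxide hydrolase that converts BaP epoxides to diols, had -0.23, -0.05, 0.05, 0.27 and 0.39 in the controls and 1.86, 1.59, 1.68, 1.60 and 1.41 in the treated mice. Every treated mouse was above every control, it rose 2.91-fold (95% interval 2.4 to 3.53, limma adjusted p = 7.6e-07), and its second probe was 1.52 higher. Of 32 xenobiotic metabolism genes tested these were the 2 that rose, and Cbr2, the lung carbonyl reductase of club cells, fell by 0.53 (limma adjusted p = 0.019), although it was 0.46 with median centring and 0.12 with the lung channel alone. The list's median was -0.12, and its calls are read against the 4.14% of all genes called.

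The AhR battery itself gave no called gene: limma called 0 of 10 tested, and 2 had an unadjusted p below 0.05. Among all 19313 genes, 4.14% were called and 3334 had an unadjusted limma p below 0.05. Cyp1a1, the cytochrome most induced by AhR, had ratios of 2.27, 0.99, 2.21, 0.89 and 0.84 in the controls and 0.31, 0.23, 0.45, 0.13 and 7.30 at 75 mg/kg/day. Mouse 20 was far above all others, and the other 4 treated mice lay below all controls. Cyp1a1 differed by 0.24 with mouse 20 and by -1.16 without it (limma adjusted p = 0.023), and it was also below 0, at -0.27 to -1.57, under 4 other alternatives in which it was not called. The same mouse was highest in Cyp1b1 (2.43, against -1.13 to -0.62 in the other 4) and in the quinone reductase gene Nqo1 (0.44, against at most -1.20). The Cyp1a1 spot was well above background in 3 of 5 treated mice. Cyp1a1 and Nqo1 were named after their values were seen. None of 19 glutathione transferases passed in limma (3 had an unadjusted p below 0.05), and of 23 NRF2 antioxidant genes Srxn1, which reduces oxidised peroxiredoxin, rose (1.34-fold, limma adjusted p = 0.033), with its highest value again in mouse 20 (0.02, the others -0.71 to -0.48) and further probes at 0.11 and 0.24.

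Several of the strong rises were of genes known from endothelium. Mmrn2, an endothelial matrix glycoprotein, had ratios of 5.02, 4.34, 5.54, 5.52 and 5.50 in the controls and 8.13, 7.42, 8.12, 7.02 and 7.07 at 75 mg/kg/day. The lowest treated mouse was above the highest control (7.02 against 5.54), and Mmrn2 rose 5.16-fold (95% interval 3.55 to 7.51, limma adjusted p = 1.5e-05). Lyve1, a hyaluronan receptor of lymphatic endothelium and of some tissue macrophages, had 4.94, 4.17, 4.67, 4.94 and 5.33 in the controls and 6.94, 6.30, 6.62, 6.48 and 6.22 in the treated mice. It rose 3.25-fold (95% interval 2.31 to 4.56, limma adjusted p = 0.00019) without overlap, and a second probe was 1.54 higher. Cd34, a sialomucin on capillary endothelium and blood progenitors, had 0.39, 0.82, 1.35, 0.83 and 0.73 against 2.29, 2.05, 2.62, 1.73 and 1.73 and rose 2.39-fold (95% interval 1.79 to 3.19, limma adjusted p = 0.00079). Adgrl4, an adhesion receptor of endothelial cells, had 2.07, 1.68, 1.99, 2.10 and 2.57 against 3.72, 2.88, 3.27, 3.11 and 3.48. Its groups were apart, and it rose 2.31-fold (95% interval 1.83 to 2.93, limma adjusted p = 0.00015). Notch4, the Notch receptor of endothelium, rose 1.79-fold (95% interval 1.46 to 2.2, limma adjusted p = 0.0016), with ratios of 2.82 to 3.80 in the controls and 3.81 to 4.31 at 75 mg/kg/day. Chosen after their values were seen, the endothelial repressor gene Bcl6b rose 2.02-fold, the protocadherin gene Pcdh17 1.98-fold, Myct1 1.81-fold (but at -0.02 as a log2 difference with the scanner software's processed signals), the intermediate filament gene Nes 1.85-fold and Col18a1, the collagen that yields endostatin, 1.79-fold. All genes chosen in this way here are rises, so they say nothing of the direction of endothelial markers as a set.

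Endothelial markers moved in both directions. Of 40 lung capillary markers tested, against 4.14% called among all genes, 4 rose (Mmrn2, Cd34, Prx at 0.80 and the apelin gene Apln at 0.76) and 3 fell (Gpihbp1, Ednrb and Fibin), and 33 did not pass. The counts depended on the processing: 13 rose and 0 fell with median centring, 10 and 3 with slide as a block, 9 and 2 with the lung channel alone, 7 and 3 with quantile scaling, 4 and 3 with the scanner software's processed signals and 3 and 3 with the authors' deposited ratios. Their median difference was 0.20, and relative to the median of all genes it was 0.37 with median centring and -0.01 with the processed signals. Their mean level per mouse ran from -0.15 to 0.17 in the controls and from -0.02 to 0.36 at 75 mg/kg/day relative to the control mean, so the groups overlapped. Apln had further probes at 0.07 to 0.62. Of 9 lymphatic markers Lyve1 rose, and of 17 arterial and venous markers Cpe (by 0.81) and Fbln2 (by 0.42) fell.

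Receptors and ligands of axon and vessel guidance rose in part. Of 38 ephrins, semaphorins and their receptors tested, 7 rose and 1 fell, against 4.14% called among all genes, and the median was 0.17. Plxna2, a semaphorin receptor, had 1.40, 1.10, 1.99, 1.45 and 1.59 in the controls and 2.61, 2.24, 2.80, 2.43 and 2.35 at 75 mg/kg/day and rose 1.97-fold (95% interval 1.59 to 2.45, limma adjusted p = 0.00064). The ephrin receptor genes Epha4 (1.78-fold) and Epha2 (1.63-fold) rose too, as did Sema6d (0.61), Sema3f (0.56), Sema3a (0.35) and the coreceptor gene Nrp1 (0.51), as log2 differences. Ephb2 went the other way: its ratios were -0.83, -0.74, -0.90, -0.81 and -0.93 in the controls and -1.45, -1.35, -1.40, -1.46 and -1.24 at 75 mg/kg/day, with no overlap, and it was lower by 1.45-fold (95% interval 1.29 to 1.64, limma adjusted p = 0.00071). Mean levels of the list were -0.05 to 0.08 in the controls and 0.14 to 0.26 in the treated mice.

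The urokinase receptor gene Plaur rose 1.53-fold (limma adjusted p = 0.011), Serpine2, an inhibitor of thrombin and plasminogen activators named after its value was seen, 2.02-fold, and Ctla2a, a cysteine protease inhibitor, 2.16-fold. Prss23, a secreted serine protease, had 1.15, 0.76, 0.96, 0.24 and 0.46 against 2.12, 1.78, 2.97, 1.37 and 1.70 and rose 2.42-fold (95% interval 1.68 to 3.48, limma adjusted p = 0.0057), with mouse 18 highest, but its second probe was only 0.24 higher.

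Among regulators of growth, Ccnd1 had the largest difference on the list of cell cycle and mitosis genes. Ccnd1, the D-type cyclin that drives entry into the cycle, had 0.72, 0.56, 0.45, 0.75 and 0.36 in the controls and 1.99, 1.76, 1.96, 1.55 and 1.66 at 75 mg/kg/day. Its groups were well separated and it rose 2.32-fold (95% interval 1.99 to 2.72, limma adjusted p = 1.3e-06). Ccnd3, a related cyclin, rose 1.46-fold and the ribonucleotide reductase gene Rrm1 1.61-fold (limma adjusted p = 0.045), where mouse 20 lay within the controls; the other 30 of 33 cell cycle and mitosis genes did not pass, and the median was -0.05. Trib2, a pseudokinase, rose 2.06-fold (95% interval 1.79 to 2.37, limma adjusted p = 1.8e-06), with a second probe at 0.41. The apoptosis inhibitor gene Bcl2l1 rose 1.63-fold beside the apoptosis gene Bax (2.45-fold). Of 25 BCL2 family and caspase genes 5 rose and Casp2 fell by 0.41. This list and that of cell cycle and mitosis genes are read against the 4.14% of all genes called. Myc, a driver of growth and ribosome production, had -2.18, -2.17, -2.37, -2.52 and -2.33 in the controls and -3.14, -2.77, -3.03, -2.92 and -2.57 at 75 mg/kg/day. It was lower in every treated mouse than in every control, by 1.49-fold (95% interval 1.26 to 1.75, limma adjusted p = 0.0059).

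Further strong rises belong to no list. Ccdc184, a coiled-coil protein gene, had ratios of 1.95, 1.44, 2.19, 1.57 and 1.71 in the controls and 4.84, 3.88, 4.69, 3.88 and 3.94 in the treated mice. It rose 5.56-fold (95% interval 3.64 to 8.48, limma adjusted p = 3.4e-05), and mice 16 and 18 were highest. Thyn1, a nuclear protein gene, had -0.95, -1.33, -1.40, -1.47 and -1.74 against 0.58, 0.22, 0.61, 0.23 and 0.30 and rose 3.4-fold (95% interval 2.53 to 4.56, limma adjusted p = 2.7e-05). Exoc4, a subunit of the exocyst that tethers secretory vesicles, had -0.86, -0.64, -0.55, -0.74 and -0.48 against 1.37, 1.03, 1.04, 0.74 and 0.23. The spread was wider in the treated mice (SD 0.43 against 0.15), the groups did not overlap, and it rose 2.9-fold (95% interval 2.24 to 3.76, limma adjusted p = 3.2e-05). Dglucy, the mitochondrial D-glutamate cyclase, rose 2.87-fold (95% interval 2.29 to 3.6, limma adjusted p = 7.2e-06), with ratios of -0.98 to -0.17 in the controls and 0.61 to 1.41 at 75 mg/kg/day. Slc19a2, a thiamine transporter, rose 2.52-fold (95% interval 2.04 to 3.11, limma adjusted p = 1.6e-05), with ratios of -1.36 to -1.03 in the controls and -0.30 to 0.48 at 75 mg/kg/day. Sncg (gamma-synuclein) rose 2.31-fold, Cox6b2, an isoform of a cytochrome oxidase subunit known from testis, 2.27-fold, and Ltc4s, the leukotriene C4 synthase, 2.41-fold (95% interval 1.52 to 3.8, limma adjusted p = 0.026), with control 4 among the treated mice. Smaller rises had small errors: St3gal1, a sialyltransferase (1.75-fold (95% interval 1.56 to 1.95, limma adjusted p = 3.3e-06)), Cpped1, a phosphatase (1.71-fold), Trim16 (1.89-fold), Rusc2 (1.73-fold, with a second probe at 0.03), Carhsp1 (1.48-fold) and 4930486L24Rik (1.78-fold).

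Falls were fewer than rises, and 48 of the 291 were of ribosomal protein genes. Of the 20 largest outside the p53 target list, 15 had groups apart, against 63.6% of all the falls and 4.71% of all genes tested. With median centring all 20 moved up, 17 of them stayed below 0, and Lars2, Grn and Rps21 came to 0.12, 0.20 and 0.17. Of all 291 falls, 73 were below 0 with that scaling.

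**Figure D3:**
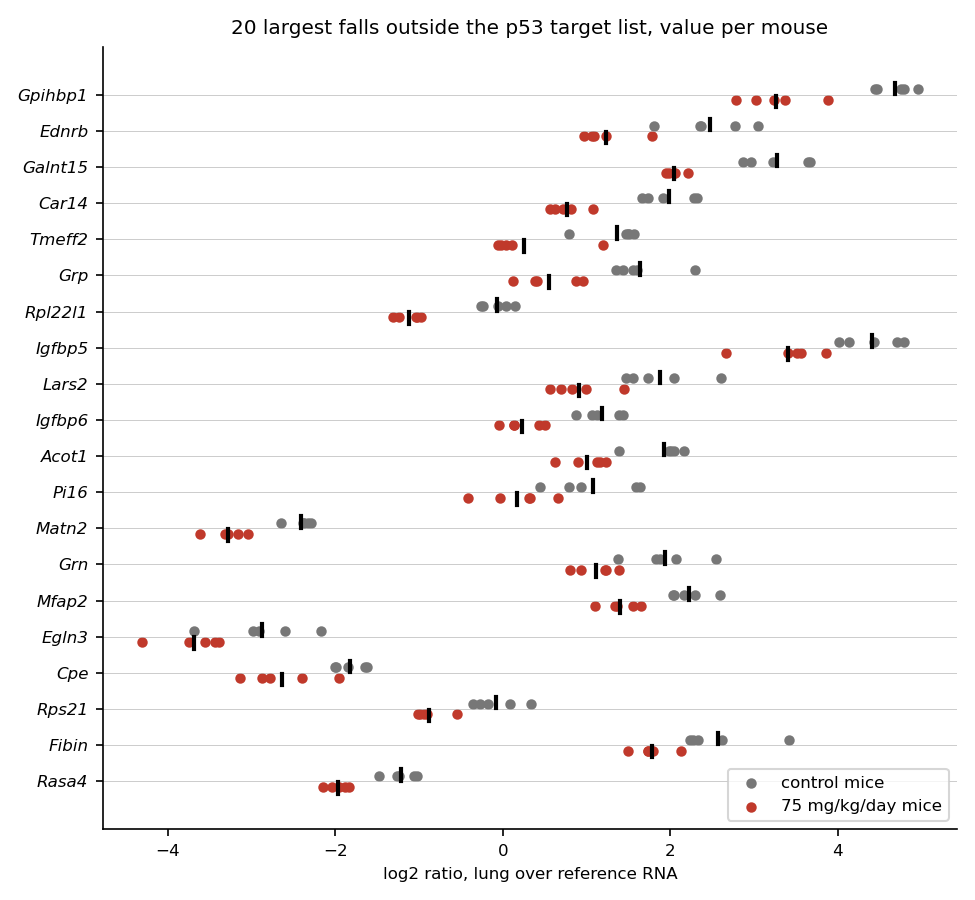
Log2 ratio of lung over reference (horizontal axis) for each mouse, grey for the 5 controls and red for the 5 mice at 75 mg/kg/day, for the 20 largest falls outside the p53 target list; black ticks are group means. Gpihbp1, Galnt15 and Car14 show a clear gap between the groups, whereas Tmeff2, Pi16, Grn, Egln3, Cpe and Ednrb have treated mice at or near the range of the controls.

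Gpihbp1, which carries lipoprotein lipase to the surface of capillary endothelium, fell the most. Its ratios were 4.79, 4.44, 4.47, 4.76 and 4.96 in the controls and 3.37, 3.02, 3.24, 3.88 and 2.79 at 75 mg/kg/day, with mouse 19 nearest to the controls. The groups did not overlap, and Gpihbp1 was lower by 2.68-fold (95% interval 2.05 to 3.51, limma adjusted p = 0.00011). Ednrb, the endothelin B receptor, had 1.81, 2.77, 3.05, 2.37 and 2.35 in the controls and 1.09, 0.97, 1.07, 1.78 and 1.23 in the treated mice. Mouse 19, again the highest treated mouse, lay just below control 1, and Ednrb was lower by 2.37-fold (95% interval 1.71 to 3.27, limma adjusted p = 0.0026); a second probe was -0.72. Fibin, a secreted protein gene on the capillary list, was lower by 1.74-fold (95% interval 1.26 to 2.4, limma adjusted p = 0.047). Among ion and water transport genes, Car14, a membrane carbonic anhydrase, had 1.74, 1.66, 1.91, 2.28 and 2.32 against 0.82, 0.56, 1.08, 0.63 and 0.72 and was lower by 2.33-fold (95% interval 1.8 to 3.01, limma adjusted p = 4e-04). Aqp1, the water channel of capillaries, had 4.00, 3.79, 3.48, 3.08 and 3.14 against 2.70, 2.74, 2.43, 2.91 and 3.01. Mouse 20 (3.01) came closest to control 4 (3.08), without overlap, and Aqp1 was lower by 1.67-fold (95% interval 1.33 to 2.09, limma adjusted p = 0.009); with median centring it was at 0.04. These 2 were the called genes of 27 on the list of carbonic anhydrases and ion transporters, against 4.14% called among all genes.

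Matrix and fibroblast genes fell in part. Igfbp6, a binding protein of insulin-like growth factor 2, had 0.87, 1.39, 1.12, 1.07 and 1.43 in the controls and 0.13, 0.43, -0.04, 0.50 and 0.14 at 75 mg/kg/day. It was lower in all treated mice than in any control, by 1.92-fold (95% interval 1.61 to 2.3, limma adjusted p = 0.00012). Igfbp5, a binding protein deposited in matrix, had 4.79, 4.71, 4.01, 4.13 and 4.43 against 3.51, 3.41, 2.67, 3.56 and 3.86 and was lower by 2.02-fold (95% interval 1.48 to 2.75, limma adjusted p = 0.009), though its second probe was at -0.33. Igfbp2 moved the other way, with ratios of 1.70 to 2.76 in the controls and 3.09 to 3.41 at 75 mg/kg/day, and rose 2.1-fold (95% interval 1.45 to 3.04, limma adjusted p = 0.02). Of 14 IGF axis genes Igf2 also fell, by 0.35, and the median was -0.15. Matn2, a filament-forming matrix protein, had -2.65, -2.37, -2.32, -2.39 and -2.29 in the controls and -3.31, -3.04, -3.62, -3.28 and -3.16 in the treated mice. The groups were apart and Matn2 was lower by 1.84-fold (95% interval 1.58 to 2.14, limma adjusted p = 3.3e-05). Mfap2, a microfibril protein, was lower by 1.76-fold (95% interval 1.48 to 2.1, limma adjusted p = 4e-04), with a second probe at -0.18. Pi16, a marker of adventitial fibroblasts, was lower by 1.88-fold (95% interval 1.31 to 2.69, limma adjusted p = 0.043), with mouse 16 inside the control range. Of 42 fibroblast and matrix genes 4 fell (Pi16, Matn2, Gsn by 0.53 and Pdgfra by 0.42), while their median was -0.03. The smooth muscle actin gene Acta2 fell by 0.62, as the 1 called gene of 21 smooth muscle and pericyte markers. The counts of these lists and of the IGF axis are read against all genes, of which 4.14% were called and 1.51% fell. With median centring Gsn and Acta2 were at 0.41 and 0.22.

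Signalling and enzyme genes made up the rest of the larger falls. Galnt15, a glycosyltransferase that starts mucin-type sugar chains, had 3.65, 2.96, 2.87, 3.23 and 3.67 in the controls and 1.95, 1.99, 2.06, 2.21 and 2.05 at 75 mg/kg/day. The treated mice were close together (SD 0.099) and all below the controls, and Galnt15 was lower by 2.33-fold (95% interval 1.84 to 2.97, limma adjusted p = 0.00016). Tmeff2, a membrane protein with follistatin-like domains, had 0.79, 1.50, 1.51, 1.47 and 1.57 against -0.02, -0.06, 0.11, 1.20 and 0.04. Mouse 19 lay above control 1, each of them far from the rest of its group, and Tmeff2 was lower by 2.16-fold (95% interval 1.54 to 3.04, limma adjusted p = 0.0088). Grp, the gastrin-releasing peptide of neuroendocrine cells, had 1.43, 1.35, 1.55, 1.60 and 2.29 against 0.41, 0.38, 0.87, 0.96 and 0.12 and was lower by 2.14-fold (95% interval 1.45 to 3.16, limma adjusted p = 0.024), with its spot well above background in 4 of 5 treated mice. Acot1, an acyl-CoA thioesterase and PPAR target, was lower by 1.88-fold (95% interval 1.48 to 2.39, limma adjusted p = 0.0027), with ratios of 1.39 to 2.16 in the controls and 0.62 to 1.23 at 75 mg/kg/day. Lars2, the mitochondrial leucyl-tRNA synthetase, was lower by 1.96-fold (95% interval 1.42 to 2.72, limma adjusted p = 0.017), and Rasa4, a RAS-inactivating protein, by 1.69-fold (95% interval 1.47 to 1.95, limma adjusted p = 0.00011). Grn (progranulin) was -0.83 on the log2 scale but -0.15 by a second probe. Egln3, a prolyl hydroxylase of the hypoxia response, was -0.82, with its spot well above background in 1 of 5 mice of each group, and its call held in 10 of 27 alternatives.

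Of the 53 lists, that of ribosomal proteins held the most falls. They encode the protein parts of the cytosolic ribosome, and their levels are among the highest in most cells. Of 79 tested, 48 fell and 1, Rps27l, rose, against 1.51% and 2.64% of all genes. Their median difference was -0.47, and 71 were below the control mean in all 5 treated mice. That value is of a ratio. With average brightness also scaled between arrays, the median was -0.31 in the lung channel and 0.15 in the reference channel. Over all genes these medians were 0 for lung and 0.01 for the reference, whose RNA was the same pool on every array. Why the reference channel of this set differed was not tested. Rpl13 had -0.56, -0.45, -0.77, -0.83 and -0.72 in the controls and -1.50, -1.30, -1.64, -1.41 and -1.09 at 75 mg/kg/day, without overlap, and was lower by 1.65-fold (95% interval 1.45 to 1.88, limma adjusted p = 6.7e-05). Rpl12 had -0.58, -0.46, -0.74, -0.64 and -0.39 against -1.20, -1.09, -1.43, -1.29 and -1.26 and was lower by 1.62-fold (95% interval 1.44 to 1.81, limma adjusted p = 2.4e-05). Rpl22l1, a paralog of Rpl22, fell the most, from -0.23, 0.04, 0.15, -0.06 and -0.26 to -1.24, -1.02, -1.31, -1.04 and -0.98, and was lower by 2.07-fold (95% interval 1.78 to 2.4, limma adjusted p = 4.8e-06). Rps4x (-0.66), Rpl37a (-0.71), Rpl38 (-0.67), Rps20 (-0.60), Rps12 (-0.59), Rps24 (-0.53), Rpl27 (-0.46) and Rps21 (-0.80) fell as well.

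The direction of this set depended on the scaling. Of the 79 genes 75 were in the brightest of 5 equal groups of genes by lung intensity. Under median centring the difference of all genes grew with brightness, from 0.019 in the dimmest group to 0.672 in the brightest, and the ribosomal median was 0.47: above 0, above the median of all genes (0.351), and below that of the brightest group, with 75 of 79 genes under it. The set's median was -0.44 with quantile scaling, -0.28 with the processed signals of the scanner software, -0.22 with the lung channel alone and -0.17 with the authors' deposited ratios, where 45, 39, 4 and 9 members fell. The lung intensity was higher on the treated arrays, as given above, and its part in these falls was not tested. Falls of other genes were also frequent among bright genes: 118 of the 243 other falls were in the brightest group. By gene span in the RefSeq table, the median was 10.4 kb for falls, 18.1 kb for falls without ribosomal genes, 20.6 kb for rises and 21.3 kb for genes not called.

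**Figure D4:**
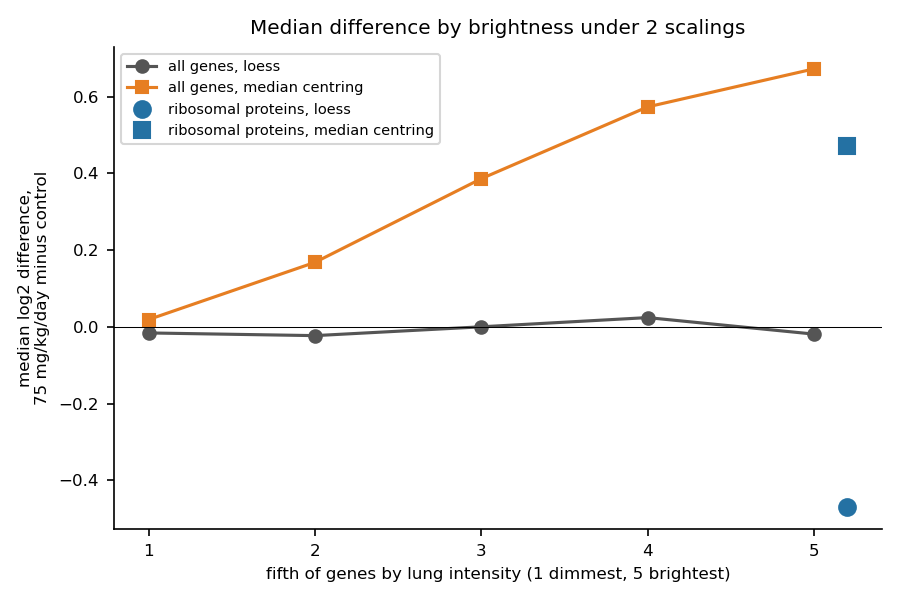
Median log2 difference (75 mg/kg/day minus control) of all genes in 5 equal groups by mean lung intensity, after loess (grey) and after median centring (orange); blue marks give the median of the 79 ribosomal protein genes, placed beside the brightest group. The orange line climbs from 0.019 to 0.672 while the grey line stays within 0.024 of 0, and the ribosomal mark is below the line of its own scaling in both.

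Other processes are read against the 4.14% of all genes called. Their unadjusted counts are read against the 3334 of 19313 genes with an unadjusted limma p below 0.05. Nucleotide excision repair, which removes bulky adducts, had 2 rises among 29 genes, the endonuclease gene Ercc5 (1.36-fold) and Gtf2h5 (1.22-fold), and translesion synthesis 1 among 20, Polk, a polymerase that bypasses such adducts (1.8-fold (95% interval 1.55 to 2.09, limma adjusted p = 4.4e-05)). Of 25 genes of the integrated stress response, Sesn2 (2.64-fold) and Ppp1r15a (1.46-fold) rose, whereas Phgdh, the first enzyme of serine synthesis (by 0.69), and Trib3 (by 0.45) fell. In NF-kB signalling the subunit gene Rela (1.46-fold), the adhesion molecule gene Icam1 (1.58-fold) and the inhibitor gene Tnfaip3 (1.4-fold) rose among 24 genes. Of 26 immediate early genes Ankrd1 (2.1-fold) and Ccn1 (1.88-fold) rose, and Myc and Klf2 (by 0.53) fell. In vessel tone signalling the natriuretic peptide clearance receptor gene Npr3 (1.94-fold, with further probes at 0.32 and 0.55), Ramp3 (0.72) and Apln rose beside the fall of Ednrb, among 27 genes. In TGF-beta and BMP signalling Tgfb1 (0.42) and its receptor gene Tgfbr2 (0.40) rose, and Tmeff2, the BMP antagonist gene Grem1 (by 0.45) and Inhba (by 0.42) fell, among 39. Wnt signalling had 1 rise among 31 genes, the feedback inhibitor Nkd1 (1.9-fold). Among 34 interferon-stimulated genes Tap1 rose (1.36-fold). Uqcrh (by 0.56) and Atp5b (by 0.36, with further probes at -0.08 and -0.01) fell among 68 respiratory chain genes, both above 0 with median centring (0.39 and 0.56). Limma called 0 of 20 endoplasmic reticulum chaperones, 0 of 23 heat shock proteins and 0 of 19 clock genes, with 2, 2 and 7 at an unadjusted p below 0.05; the largest differences, not called, were Hspa5 (0.28), Hspb1 (-0.54, but 0.17 with median centring) and Dbp (0.86).

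**Figure D5:**
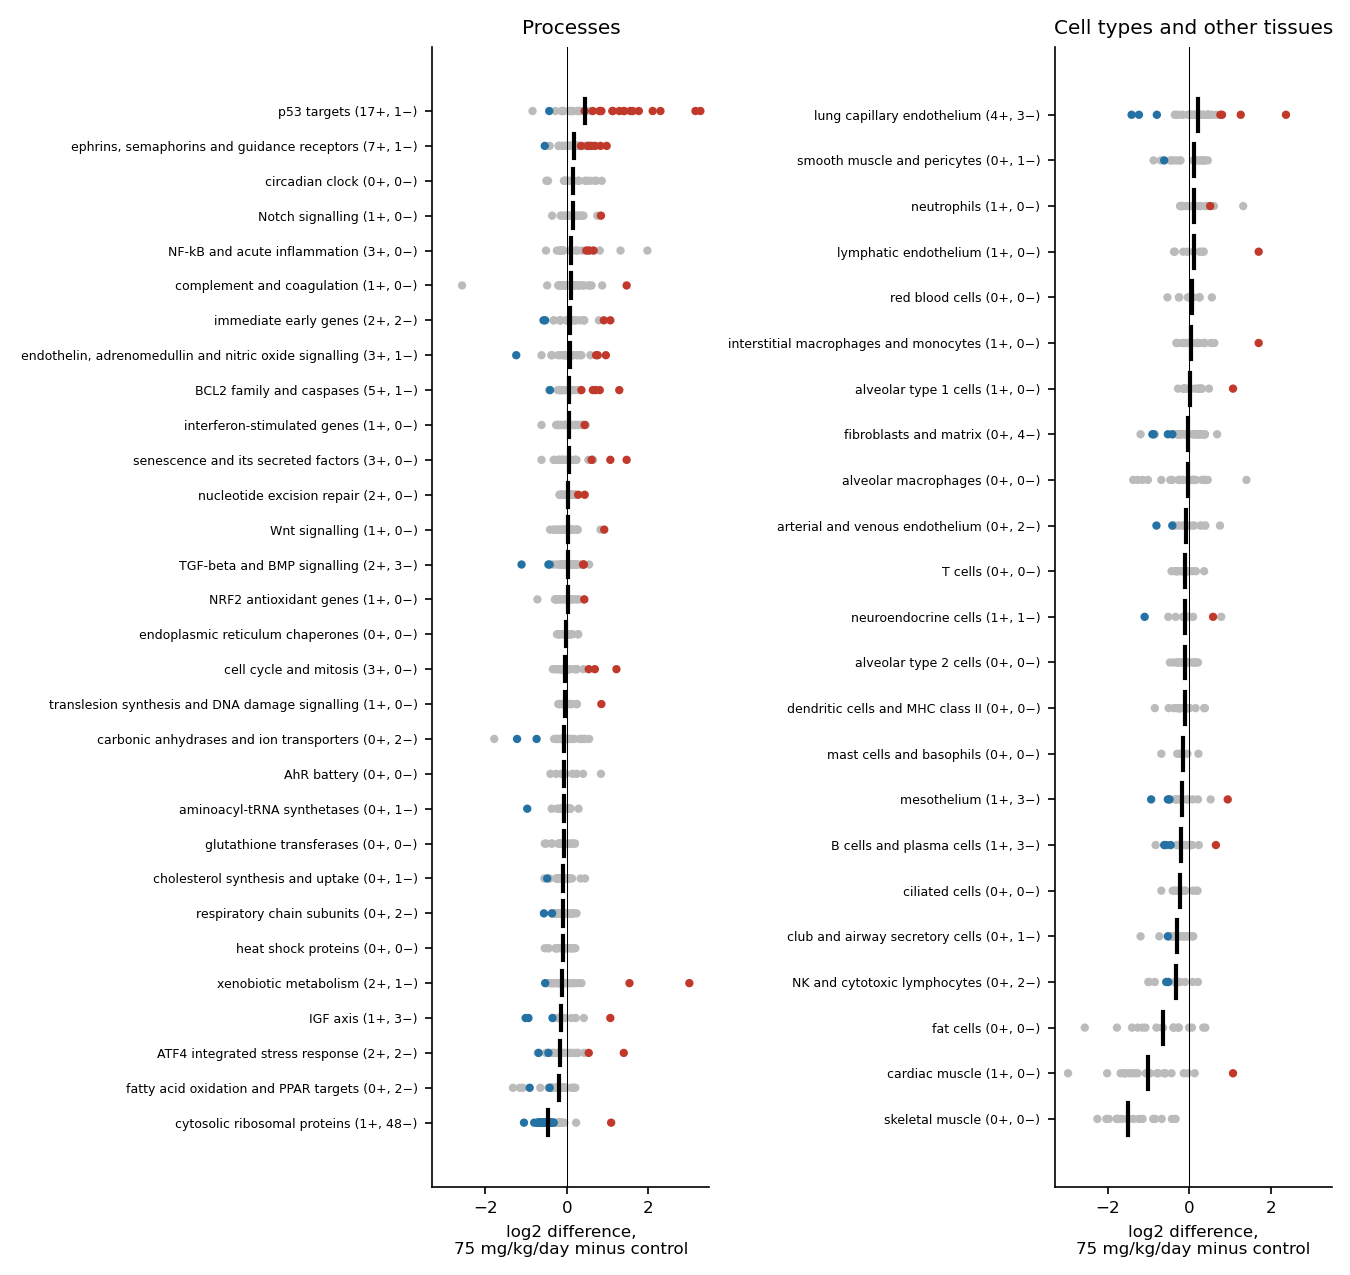
Log2 difference (75 mg/kg/day minus control) of each tested member of 53 gene lists, red where it rose, blue where it fell and grey where it did not pass; black ticks are list medians, and the counts of rises (+) and falls (−) stand beside each name. The p53 targets have the highest median (0.45) and ribosomal proteins the lowest of the processes (-0.47), while muscle and fat markers spread far below 0 with few calls.

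Cell type markers are read against the same 4.14% of all genes, and their unadjusted counts against the same 3334 of 19313 genes. Alveolar type 2 markers had 0 of 21 called by limma (2 at an unadjusted p below 0.05), alveolar macrophage markers 0 of 24 (6), T cell markers 0 of 21 (6) and dendritic cell markers 0 of 22 (3). The scavenger receptor gene Marco, of alveolar macrophages, differed most among these, at 1.41 (limma adjusted p = 0.067). Of 23 B cell and plasma cell markers, Cd79b (-0.62), Blnk (-0.58) and Tnfrsf13c (-0.46) fell and Prdm1, a regulator of plasma cells and of other lymphocytes, rose (1.57-fold). Of 15 NK cell markers the receptor genes Klra7 (-0.57) and Klrb1c (-0.52) fell, and the median was -0.34. The Klrb1c spot was well above background in 1 of 5 treated mice. Klra7 was lower on 2 of the 4 slides with both groups, and its call held in 16 of 28 alternatives. Krt8 (-0.53), Krt18 (-0.49) and Igfbp6 fell and Cd200 rose (1.92-fold) among 17 mesothelial markers. Of 21 neutrophil markers Csf3r rose (1.43-fold), and of 14 neuroendocrine markers Ddc rose (1.5-fold) beside the fall of Grp. Markers of tissues around the lung varied widely between mice: the median difference was -1.52 over 19 skeletal muscle genes, -1.02 over 22 cardiac genes and -0.65 over 17 fat cell genes, with 0, 1 (Ankrd1, which rose) and 0 called by limma and 9, 5 and 6 at an unadjusted p below 0.05. Their mean levels overlapped between groups, at -1.27 to 3.61 in the controls and -1.70 to -0.96 at 75 mg/kg/day for skeletal muscle, -0.76 to 1.14 and -1.76 to 0.57 for cardiac muscle, and -0.74 to 1.04 and -1.16 to 0.31 for fat cells. The part of such tissue in the falls of fatty acid, fibroblast and vessel genes was not tested.

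The doses of 25 (lowest) and 50 mg/kg/day (middle) were set against the same 5 controls, so their values are not independent of those above. The difference from control was, for Mmrn2, 0.83 at the lowest and 1.72 at the middle dose, for Ces2e 1.00 at the lowest and 2.54 at the middle dose, for Ephx1 0.78 at the lowest and 1.23 at the middle dose and for Ccdc184 1.07 at the lowest and 1.98 at the middle dose, each below its value at 75 mg/kg/day. Cd34 (-0.04 at the lowest and 0.60 at the middle dose) and Gpihbp1 (0.02 at the lowest and -0.75 at the middle dose) were near 0 at the lowest dose. Igfbp5 (-0.36 at the lowest and -0.22 at the middle dose) and Psrc1 (0.18 at the lowest and 0.75 at the middle dose) were well short of their differences at 75 mg/kg/day, whereas Matn2 (-0.58 at the lowest and -0.59 at the middle dose), Ephb2 (-0.48 at the lowest and -0.39 at the middle dose) and Notch4 (0.70 at the lowest and 0.76 at the middle dose) were closer to theirs. These differences between doses were not tested here.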

How the data were processed

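Lung RNA of 10 mice, 5 at 75 mg/kg/day and 5 controls, was compared, and all 19 arrays of the series entered the fit. Per the file headers, the deposited spot intensities came from Feature Extraction 10.7.3.1 and covered 45018 spots an array, 43379 of them not controls; the median intensity of spot and local background was used. The log2 ratios deposited by the authors for the same spots served as an alternative; against the scanner ratios after loess without background subtraction their r was 0.996 to 0.998 and their slope 0.991 to 0.995, which gives scale and direction, while how they were centred is not stated. Local background was removed by normexp (offset 50, which understates folds of dim spots) and arrays were normalized by loess in limma 3.58.1 under R 4.3.3, with control spots at weight 0. Outlier spots (0.29%) were left out, leaving 21 missing values, and 0 were saturated. Of 41174 probes 23374 (56.77%) were named by accession through a RefSeq table of assembly GRCm38.p6, whereas the array design names build mm8, so array probes are given no coordinates; promoter windows carry those of GRCm38.p6. A probe was kept if 4 or more arrays had it well above background for lung RNA, and the brightest kept probe stood for its gene. Group means were fitted in limma (lmFit, eBayes) and p-values adjusted by Benjamini-Hochberg over all 19313 genes, at 0.05. The design as written had assumed mean spot intensities; the files used here give medians. The script was tested on simulated data.

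The comparison, its gene lists (53) and its tests were chosen with earlier results of these data known. Named genes are the 20 largest rises and 20 largest falls outside the p53 list with 5 of 5 mice on one side of the control mean, up to 3 called members of each list (or the largest difference where none passed), the 5 largest p53 targets, and the 10 smallest p in each direction among the rest; others are said to be chosen after their values were seen, except list members given to complete a count. Of the genes this rule names, 2 are not reported here. Alternatives covered background, scaling, filters, probe choice, slide and scan day, and leaving out each mouse. Mouse numbers were unique, so nothing was paired.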

Additional observations from a re-analysis of the deposited data

Results flagged for a closer look

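In 17 of the 274 groups of 5 mice checked over the named genes, 1 mouse lay far from the other 4; chance alone flags about 1 in 20 groups. Mouse 20 was the outlying treated mouse in Cyp1a1 (a log2 ratio of 7.3, the next mouse at 0.45), Cyp1b1 (2.43, next -0.62), Nqo1 (0.44, next -1.2) and Rps21 (-0.55, next -0.90). Mouse 19 was highest of its group in Tmeff2 (1.2, next 0.11), mouse 16 in Phlda3 (2.62, next 2.28) and Ppp1r15a (0.23, next -0.22), and mouse 17 lowest in Nkd1 (4.06, next 4.45). Among the controls, control 1 was lowest in Tmeff2 (0.79, next 1.47) and Plaur (-0.22, next 0.31), control 2 lowest in Cd200 (3.27, next 3.84) and control 5 highest in Grp (2.29, next 1.6). Control 3 stood apart in Acot1 (1.39, next 1.99), Uqcrh (0.36, next 0.83), Ccn1 (-1.31, next -1.65), Trim16 (2.44, next 2.16) and Slc2a9 (-0.34, next -0.08). No cause of these values was tested.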

How the results depend on the processing

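The number of genes called, 800 (509 rises, 291 falls), was 504 with a normexp offset of 10, 1449 with Feature Extraction's processed signals, 1766 with slide as a block, 1848 with slide as a random block, 1494 with scan day as a block and 414 in a fit of the 10 arrays alone. Rises numbered 972, 986, 1104, 852 and 292 with processed signals, slide as a block, slide as a random block, scan day and the 10 arrays alone, and falls 3 with median centring, 115 with the lung channel alone and 146 with offset 10, then 477, 780, 744, 642 and 122 in the same order. Without 1 mouse the count ran from 445 to 977, with 305 to 608 rises and 137 to 369 falls. Of the rises 167 and of the falls 1 kept their call in all 18 alternatives that leave out no single mouse. With median centring the direction of called genes turned for Lars2 0.12, Grn 0.20, Rps21 0.17, Cbr2 0.46, Grem1 0.20, Inhba 0.16, Aqp1 0.04, Phgdh 0.11, Uqcrh 0.39, Atp5b 0.56, Slc27a1 0.12, Fbln2 0.34, Gsn 0.41, Acta2 0.22, Krt8 0.34, Cd79b 0.11, Blnk 0.18, Rpl12 0.32, Rps4x 0.32, Rpl13 0.26, Rpl38 0.34, Rpl37a 0.34, Rps12 0.42, Rps24 0.42, Rps20 0.41 and Rpl27 0.49, as log2 differences, and for the ribosomal median (0.47), where the median of all genes was 0.351. With the lung channel alone Cbr2 (0.12) and Gsn (0.04) turned, Myct1 with the Feature Extraction processed signals (-0.02), and Cyp1a1 without mouse 20 (-1.16; up to 0.63, without mouse 19). Among genes not called, median centring turned Hspb1 (0.17), Gsto1 (0.27), Hc (0.14) and Cd5 (0.03). Cyp1a1 was below 0 with offset 10 (-0.27), processed signals (-1.57), array weights (-0.46) and without the arrays marked for evaluation (-0.63), and Nqo1 with array weights (-0.07), without those arrays (-0.31) and without mouse 20 (-0.20). Of the other comparisons of a named gene with an alternative, 3423 kept direction and side of the threshold, 345 lost the call and 17 gained it. Egln3 was not alone in a call that held in few alternatives. Krt8, Phgdh and Grem1 kept theirs in 10 of 28, Slc27a1 in 11, Icam1 in 13 and Fibin in 14. Fbln2 kept its call in 15 of 28, and Pi16, Rrm1 and Klra7 in 16. Mean spot intensity was not run, because the files used here give medians. Dim spots and 5 mice per group limit what can be told apart.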

Other observations

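Named after their values were seen, 2 further genes on none of the lists rose without overlap of the groups. Ackr3, an atypical chemokine receptor that scavenges Cxcl12, had log2 ratios of 0.88, 0.59, 0.29, 0.48 and 0.56 in the controls and 1.62, 1.35, 1.53, 1.38 and 2.23 at 75 mg/kg/day, 2.09-fold higher (95% interval 1.6 to 2.74, limma adjusted p = 0.002). Mboat2, an acyltransferase of membrane lipids, had -0.14, -0.11, 0.01, 0.06 and -0.08 in the controls and 0.50, 0.74, 1.67, 1.00 and 1.11 in the treated mice, 2.08-fold higher (95% interval 1.65 to 2.63, limma adjusted p = 0.00053), but its spot was well above background in only 2 of 5 controls.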
